A study of Mus musculus with 6 samples.

Results

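The translation initiation factors and the partners of the poly(A)-binding protein were followed in primary cultures of aortic endothelial cells from transgenic and non-transgenic mice. The members were genes on the Affymetrix mouse array with an Eif symbol and a number and a probe set annotated to that gene alone. The eIF2alpha kinases and the sex-linked gamma subunits of eIF2 were left out, and Paip1, Paip2 and Pabpc1 were added. Eif1, Eif2s1, Eif3g, Eif4g1 and Eif4ebp3 are not among the members, so their levels are not described here. Where a gene had several probe sets, the brightest on average stood for it, which gave 44 genes of 18193 on the array, and 43 of them passed a filter on low signal that 11208 genes passed. These 44 genes had 122 of the 45101 probe sets. Eif4a3, a helicase of the exon junction complex, was the member under the filter, with a mean level of 6.02 on the 1 probe set that names it alone. A brighter probe set, with a mean of 12.91, is annotated to Eif4a3 and Gm5576 together and was not used, so the low value is not a measure of how strongly Eif4a3 was expressed.

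Initiation begins when eIF2 brings the initiator tRNA to the small ribosomal subunit, which eIF3, eIF1, eIF1A and eIF5 prepare for scanning. The eIF4 factors bind the cap, unwind the leader and recruit this complex, while the poly(A)-binding protein at the other end of the mRNA contacts the eIF4G scaffold and supports rounds of translation. Paip1 strengthens these contacts, Paip2 displaces the poly(A)-binding protein from the tail, and eIF2B recharges eIF2 with GTP for the next round.

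The transgenic group carried human PPARG with the V290M change, a dominant negative form of this nuclear receptor, under the endothelial CDH5 promoter, and the other group was non-transgenic. All mice were of strain C57 and no cells were treated. Per the labels, each group had 10 mice whose cells were pooled in pairs into 5 cultures (2 mice per culture), and 3 of these cultures were put on arrays after a two-step amplification of about 50 ng of RNA, so n = 3 cultures per group throughout. All levels are log2(signal + 16), differences are transgenic minus non-transgenic on that scale, where changes of dim genes are understated, and errors are limma's moderated standard errors (SE). Precision is limited by the small number of arrays.

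The endothelial label was only partly matched by the markers. Of 20 endothelial markers 8 lay above the filter, with Cdh5, Pecam1, Nos3 and Vwf under it on every array, while the filter was passed by 15 of 15 fibroblast, 17 of 17 proliferation, 8 of 10 adipocyte, 8 of 12 smooth muscle and 4 of 16 leukocyte markers. In whole cultures, fewer cells of a type and less RNA per cell cannot be told apart. Transgenic replicate 3 stood apart from its group, with a mean rank correlation of 0.907 with the other transgenic arrays and 0.972 with the non-transgenic arrays, so results are given with and without it. That array was singled out for its likeness to the other group, so leaving it out favours larger differences and smaller p values. Calls made without it are descriptive only. The median signal was 173 to 186.1 on the transgenic arrays, against 219.9 to 222.9 on the non-transgenic arrays, although all arrays had been scaled to nearly the same trimmed mean.

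Most initiation factors differed little between the groups, and the few that stood out were Paip1 and the helicase Eif4a2 on the lower side and Eif2b2, the cap-binding protein Eif4e2 and Eif6 on the higher side. The difference was under 0.2 in size for 27 of the 43 members, 0.2 to 0.5 for 12 and over 0.5 for 4. The median size was 0.14, against 0.24 over all genes tested. The members were also brighter, 41 of them passing a filter at the 75th percentile, as 7052 of the 11208 genes did. Their median range was 0.42 over the transgenic and 0.24 over the non-transgenic cultures, against 0.62 and 0.35 for all genes. The comparison of sizes was not adjusted for level or spread. The 95% interval of the difference lay within -0.5 to 0.5 for 17 members. The median difference was 0.01 for the members, against -0.02 for all genes tested, and 22 members lay above 0 (51.2%, against 47.5% of all genes).

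No member passed limma's test at an adjusted p of 0.05, and the same held for all genes (0% of 11208 called), the smallest adjusted p being 0.428. At an unadjusted p of 0.05, 5 members passed (11.6%, against 11.5% of all genes), 3 of them higher (6.98%, against 6.47%) and 2 lower (4.65%, against 5.02%). The groups did not overlap for 8 members (18.6%, against 16.1% of all genes), 6 higher (14%, against 9.39%) and 2 lower (4.65%, against 6.72%). These shares are near those of the array as a whole.

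**Figure D1:**
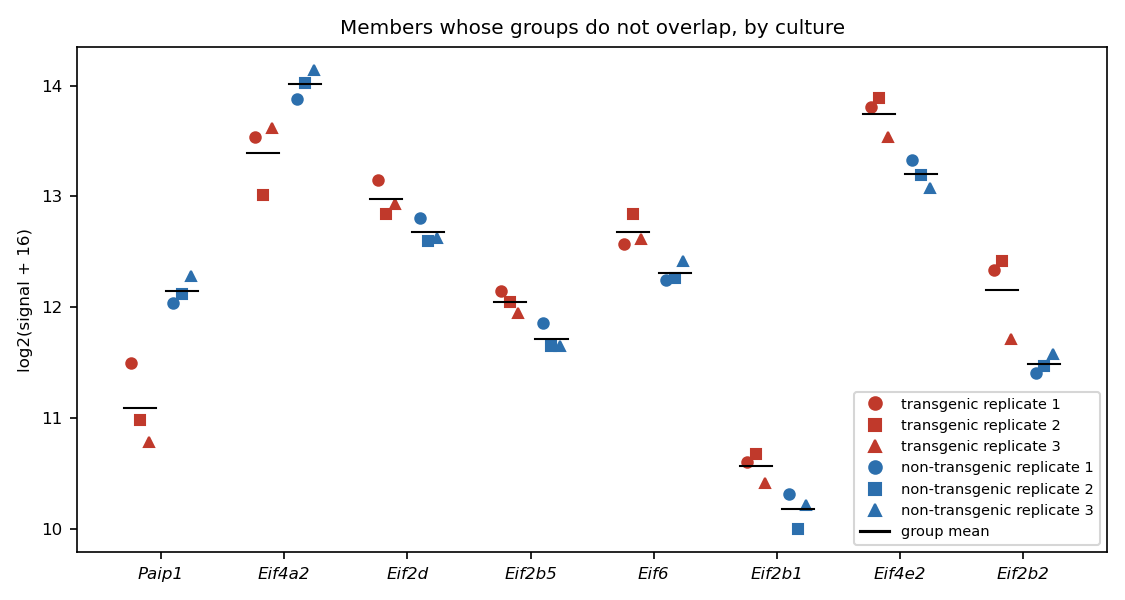
Level, as log2(signal + 16), of the 8 members whose groups did not overlap, with 1 point per culture and a line at each group mean. Paip1 and Eif4a2 lay lower in the transgenic cultures and the other 6 higher. For Eif2b2 the transgenic replicate 3 point, at 11.72, lies next to the non-transgenic points.

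Without transgenic replicate 3, 5 members passed limma's adjusted p of 0.05 (11.6%, against 14.7% of all genes). Higher were Eif2b2, Eif4e2 and Eif1ax (6.98%, against 6.88%), and lower were Paip1 and Eif4a2 (4.65%, against 7.83%). At an unadjusted p of 0.05 in limma 11 members passed (25.6%, against 32.5% of all genes), 8 higher (18.6%, against 14.2%) and 3 lower (6.98%, against 18.3%). The 5 arrays put 23 members in groups that did not overlap (53.5%, against 50.2% of all genes), 17 of them higher (39.5%, against 22.8%) and 6 lower (14%, against 27.4%). The median difference of the members was then 0.10, against -0.06 for all genes, with 30 of 43 members above 0 (69.8%, against 44.9%).

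The start regions of the 4 members with a difference over 0.5 are shown because their levels differed most in size among the members. They are taken from RefSeq's promoter table for GRCm38.p6 and run from 250 bases before to 20 bases after the listed start, all on the plus strand. Paip1 lies at chr13:119428350-119428619, Eif4a2 at chr16:23107218-23107487, Eif4e2 at chr1:87213661-87213930 and Eif2b2 at chr12:85219231-85219500. Capitals mark, on either strand, GGGCGG (the GC box of Sp1), CCGGAAG (an ETS motif) and CCAAT (the NF-Y box), and no marked matches share a base. CACGTG, the E-box of Myc and its relatives, was also searched and is in none of the 4.
Paip1: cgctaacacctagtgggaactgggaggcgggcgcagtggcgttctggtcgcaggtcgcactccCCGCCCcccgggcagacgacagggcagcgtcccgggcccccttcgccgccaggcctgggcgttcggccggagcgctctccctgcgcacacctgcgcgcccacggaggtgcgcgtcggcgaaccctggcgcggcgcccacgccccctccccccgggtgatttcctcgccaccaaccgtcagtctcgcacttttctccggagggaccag
Eif4a2: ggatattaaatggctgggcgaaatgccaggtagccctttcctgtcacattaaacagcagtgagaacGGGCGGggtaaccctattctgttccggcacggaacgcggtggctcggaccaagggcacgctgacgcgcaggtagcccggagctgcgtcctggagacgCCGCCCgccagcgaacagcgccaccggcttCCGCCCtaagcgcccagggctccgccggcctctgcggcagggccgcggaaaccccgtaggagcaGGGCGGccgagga
Eif4e2: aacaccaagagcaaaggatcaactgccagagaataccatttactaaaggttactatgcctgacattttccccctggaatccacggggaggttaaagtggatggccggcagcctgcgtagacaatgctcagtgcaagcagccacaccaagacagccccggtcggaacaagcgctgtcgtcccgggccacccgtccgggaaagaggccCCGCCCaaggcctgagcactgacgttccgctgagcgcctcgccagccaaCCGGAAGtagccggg
Eif2b2: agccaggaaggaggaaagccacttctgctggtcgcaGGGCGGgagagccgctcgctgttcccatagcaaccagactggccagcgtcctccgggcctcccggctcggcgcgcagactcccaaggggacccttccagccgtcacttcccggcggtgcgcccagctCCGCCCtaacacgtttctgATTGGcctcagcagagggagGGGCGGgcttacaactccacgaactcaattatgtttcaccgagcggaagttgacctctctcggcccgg

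Each of the 4 start regions held a GC box on one strand or the other, Eif4a2 4 of them, and they ranged from 59.6% to 73.7% G and C. Paip1 showed 1 CCGCCC and none of the other motifs. Eif4e2 held CCGGAAG close to its start, and Eif2b2 held ATTGG, the reverse complement of CCAAT. For Eif2b2 a CCGGAAG was found only past the printed stretch. Where the table lists several starts, 2 for Paip1 and 3 for Eif4e2, the first listed was used.

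Of the 44 members 33 had an entry in the table, read as windows of 300 bases, 250 before and 50 after the start. Among the 32 of them that passed the filter, CCGGAAG was found in 14 (43.8%), against 20.5% of 9098 filtered genes with an entry. CACGTG was found in 9 (28.1%, against 11.7%), among them Eif4e, Eif4a1, Eif4h and Eif5a. GGGCGG was in 25 (78.1%, against 70%) and CCAAT in 12 (37.5%, against 43.1%). Counted per window and not per gene, the shares over all 32851 windows of the table were 8.86% for CCGGAAG, 7.15% for CACGTG, 35.7% for GGGCGG and 37.4% for CCAAT. Over the 46 windows of the members they were 37%, 23.9%, 73.9% and 26.1% in that order. A match describes letters only, and nothing was measured here on the binding of a factor.

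The poly(A)-binding partner Paip1 had the smallest p among the members. It was at 11.50, 10.99 and 10.79 in the transgenic cultures, against 12.04, 12.12 and 12.28 in the non-transgenic cultures. No transgenic culture reached the lowest non-transgenic one. Transgenic replicate 3 was the lowest of all, as it was for 19 of 43 members (44.2%, against 14.3% of all genes). The difference was -1.06 ± 0.22 (SE, 95% interval -1.57 to -0.54), a 2.08-fold lower level (limma adjusted p = 0.428, unadjusted p = 0.00159), and -0.91 ± 0.20 without transgenic replicate 3 (limma adjusted p = 0.0251).

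Paip1 is read by 4 probe sets, of which 3 passed the filter. The second was at 10.34, 10.04 and 9.52 in the transgenic cultures and at 10.85, 10.88 and 11.03 in the non-transgenic cultures, a difference of -0.95 with no overlap. The next differed by -0.21 and its groups overlapped. The probe set under the filter was at 6.34, 6.12 and 7.18 in the transgenic cultures, against 7.55, 8.13 and 7.84 in the non-transgenic cultures. The 3 above the filter thus lay on the lower side, though the sizes of the differences varied several-fold. The one under the filter was not tested. The median signal was itself lower on the transgenic arrays, so the direction of so dim a probe set is not counted.

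Its binding partner Pabpc1, the main cytoplasmic poly(A)-binding protein, showed no such separation. It was at 13.93, 14.04 and 13.75 in the transgenic cultures, against 14.06, 13.80 and 13.90 in the non-transgenic cultures. The groups overlapped throughout, and the difference was -0.01 ± 0.12 (SE, 95% interval -0.30 to 0.27, limma adjusted p = 0.975). A second, much dimmer probe set differed by -0.50, with groups that overlapped.

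Paip2, the inhibitor that takes Pabpc1 off the tail, was at 14.14, 13.59 and 13.83 in the transgenic cultures, against 13.84, 14.08 and 14.17 in the non-transgenic cultures. Transgenic replicate 1 lay among the highest and replicate 2 was the lowest. The difference was -0.17 ± 0.17 (SE, 95% interval -0.56 to 0.21, limma adjusted p = 0.671). Whether the differences of Paip1, Paip2 and Pabpc1 differ from each other was not tested.

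**Figure D2:**
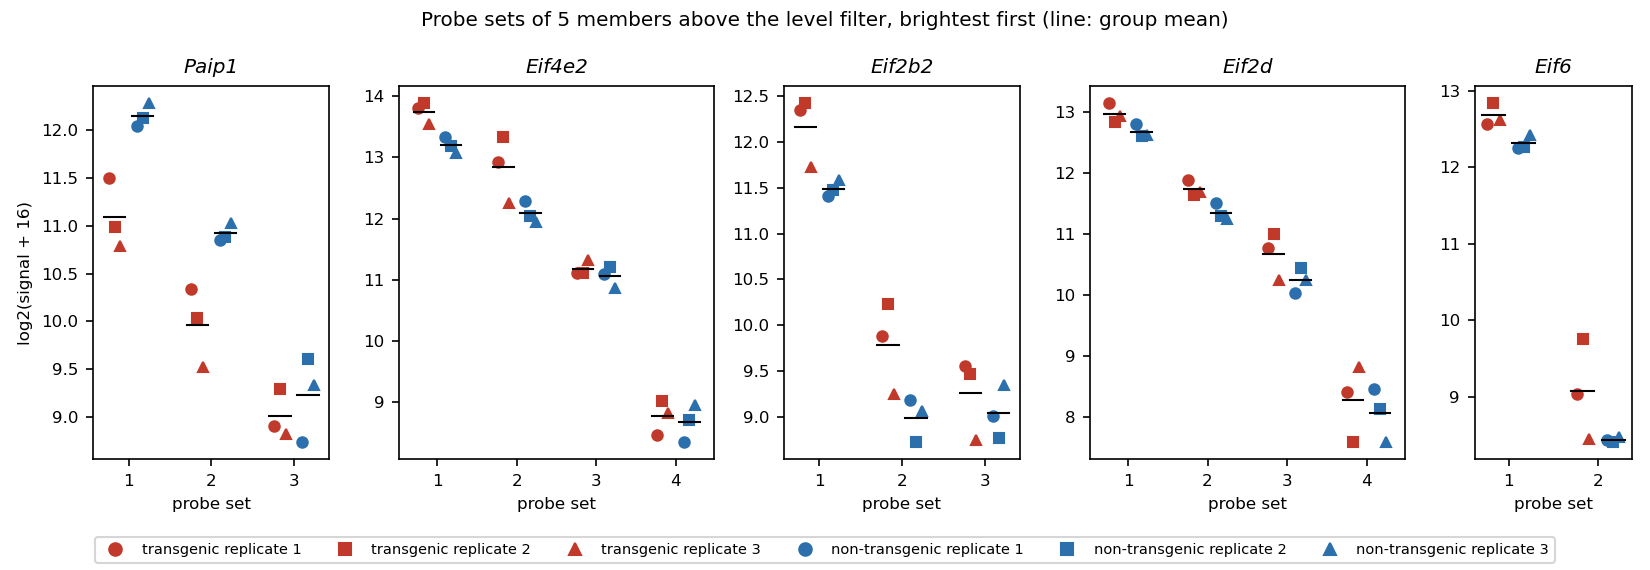
Levels, as log2(signal + 16), on every probe set above the filter for Paip1, Eif4e2, Eif2b2, Eif2d and Eif6, brightest probe set first, with 1 point per culture and a line at each group mean. Paip1 is lower in the transgenic cultures on its first 2 probe sets without overlap, and Eif2d is higher on all 4 of its probe sets by group mean, without overlap on the first 2.

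Among the eIF4 factors 2 members stood apart in opposite directions, and the other 7 tested did not pass an unadjusted p of 0.05. Eif4e2, a cap-binding relative of eIF4E that does not bind eIF4G and is known as a repressor of translation, was at 13.81, 13.89 and 13.54 in the transgenic cultures, against 13.33, 13.19 and 13.08 in the non-transgenic cultures. Every transgenic culture lay above every non-transgenic one, with replicate 3 the lowest of its group. The difference was 0.55 ± 0.14 (SE, 95% interval 0.22 to 0.87), a 1.46-fold higher level (limma adjusted p = 0.428, unadjusted p = 0.00469), and 0.65 ± 0.13 without transgenic replicate 3 (limma adjusted p = 0.0164).

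The 4 probe sets of Eif4e2 above the filter differed by 0.55, 0.74, 0.12 and 0.10, brightest first. On the second, transgenic replicate 3 lay at 12.26, inside the range of the non-transgenic cultures, which reached 12.29. The mean over all its probe sets differed by 0.28.

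Eif4a2, the helicase paralogue of eIF4A that is also linked to deadenylation complexes, was at 13.54, 13.01 and 13.62 in the transgenic cultures, against 13.88, 14.02 and 14.14 in the non-transgenic cultures. Every transgenic culture lay below every non-transgenic one, and replicate 2 was the lowest by a wide margin. The difference was -0.63 ± 0.18 (SE, 95% interval -1.04 to -0.21), a 1.54-fold lower level (limma adjusted p = 0.428, unadjusted p = 0.0082), and -0.74 ± 0.17 without transgenic replicate 3 (limma adjusted p = 0.0276). Only 1 probe set reads this gene, and its difference was -0.36 with each array centred on its median.

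The paralogue Eif4a1, the main helicase of the cap complex, differed by 0.13 ± 0.17 (SE, 95% interval -0.26 to 0.52), and its 3 probe sets lay between 0.07 and 0.25. Eif4e, the cap-binding subunit itself, was at 12.90, 12.81 and 12.38 in the transgenic cultures, against 12.01, 12.57 and 12.70 in the non-transgenic cultures. Transgenic replicates 1 and 2 were its highest, replicate 3 lay within the non-transgenic range, and the difference was 0.27 ± 0.23 (limma adjusted p = 0.633). Another cap-binding relative, Eif4e3, differed by -0.30 ± 0.25, with its lowest level of 10.53 in transgenic replicate 2.

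The helicase cofactors Eif4b and Eif4h differed by -0.04 ± 0.14 and -0.09 ± 0.10. A dimmer probe set of Eif4b, at 13.26, 13.02 and 12.50 in the transgenic cultures and at 12.53, 12.28 and 12.37 in the non-transgenic cultures, differed by 0.53 ± 0.21 (limma adjusted p = 0.29 over all probe sets), with groups that overlapped. Eif4g2, a scaffold that lacks the eIF4E site, differed by 0.02 ± 0.12. The scaffold Eif4g3 differed by -0.01 ± 0.23, and its non-transgenic cultures alone spread over 0.85. On their brightest probe sets none of these 4 exceeded the spread between cultures.

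The inhibitors and the transporter of eIF4E among the members lay higher on average in 3 of 3, with a median difference of 0.15. Each difference was within the spread. Eif4ebp1, which releases eIF4E when mTOR phosphorylates it, was at 14.21, 14.18 and 13.93 in the transgenic cultures, against 14.09, 13.78 and 14.01 in the non-transgenic cultures, a difference of 0.15 ± 0.13 (limma adjusted p = 0.648). Its relative Eif4ebp2 was at 13.17, 13.77 and 13.59 in the transgenic cultures, against 13.61, 13.03 and 12.98 in the non-transgenic cultures, a difference of 0.30 ± 0.22 (limma adjusted p = 0.58). Both pairs of groups overlapped.

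Eif4enif1, which carries eIF4E to the nucleus and to processing bodies, was at 11.14, 11.07 and 11.57 in the transgenic cultures, against 11.14, 11.21 and 11.07 in the non-transgenic cultures. Transgenic replicate 3 alone was high. The difference was 0.12 ± 0.21 (limma adjusted p = 0.817) and turned to -0.03 without that array.

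Of the 6 members that belong to eIF2 and its exchange factor eIF2B, 5 lay above 0 (47.5% of all genes did). Their median difference was 0.25 (0.36 without transgenic replicate 3). The groups of 3, Eif2b2, Eif2b5 and Eif2b1, did not overlap on the higher side, as for 9.39% of all genes, and of these Eif2b2 alone had an unadjusted p under 0.05 in limma. Eif2b2, the beta subunit, was at 12.34, 12.42 and 11.72 in the transgenic cultures, against 11.41, 11.47 and 11.58 in the non-transgenic cultures. Transgenic replicates 1 and 2 lay well above all others, and replicate 3 stood just above the non-transgenic range. The difference was 0.67 ± 0.22 (SE, 95% interval 0.16 to 1.18), a 1.59-fold higher level (limma adjusted p = 0.428, unadjusted p = 0.0171), and 0.89 ± 0.16 without transgenic replicate 3 (limma adjusted p = 0.0133).

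The second probe set of Eif2b2 was at 9.88, 10.23 and 9.25 in the transgenic cultures and at 9.19, 8.73 and 9.07 in the non-transgenic cultures. It too did not overlap, with a difference of 0.79. The dimmest differed by 0.22 and overlapped. The Eif2b2 difference was 0.19 once the fit took in, as a covariate, the ratio of 3' over 5' signal for the array's Gapdh controls. That ratio was 1.35, 1.20 and 1.44 in the transgenic cultures and 1.71, 1.55 and 1.51 in the non-transgenic cultures (two-sided exact permutation p = 0.1, which is the lowest reachable with 3 arrays per group). This ratio compares signal near the ends of 1 transcript and moves with transcript length in the labelled RNA. It did not overlap between the groups, so in this fit it cannot be told apart from the genotype. With the beta-actin ratio, whose groups overlapped, as the covariate, Eif2b2 differed by 0.49 (limma adjusted p = 0.428).

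Eif2b5, the catalytic epsilon subunit, was at 12.15, 12.05 and 11.95 in the transgenic cultures, against 11.86, 11.65 and 11.65 in the non-transgenic cultures. The groups lay close together without overlap, and the difference was 0.33 ± 0.16 (limma adjusted p = 0.453). Averaged over both of its probe sets, of which the other lay under the filter, it turned to -0.24. Eif2b1, the alpha subunit, was at 10.61, 10.68 and 10.42 in the transgenic cultures, against 10.32, 10.00 and 10.22 in the non-transgenic cultures, a difference of 0.39 ± 0.22 (limma adjusted p = 0.487).

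The remaining subunits did not share this order. Eif2b3, the gamma subunit, differed by 0.16 ± 0.20. Eif2b4, the delta subunit, differed by -0.28 ± 0.25, and it was at 10.56, 10.21 and 10.99 in the transgenic cultures, against 10.82, 10.90 and 10.87 in the non-transgenic cultures. Transgenic replicate 2 was its lowest and replicate 3 its highest. Eif2s2, the beta subunit of eIF2, differed by 0.06 ± 0.26, with 12.99 in transgenic replicate 3 against 13.77 and 13.90 in the other transgenic cultures.

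**Figure D3:**
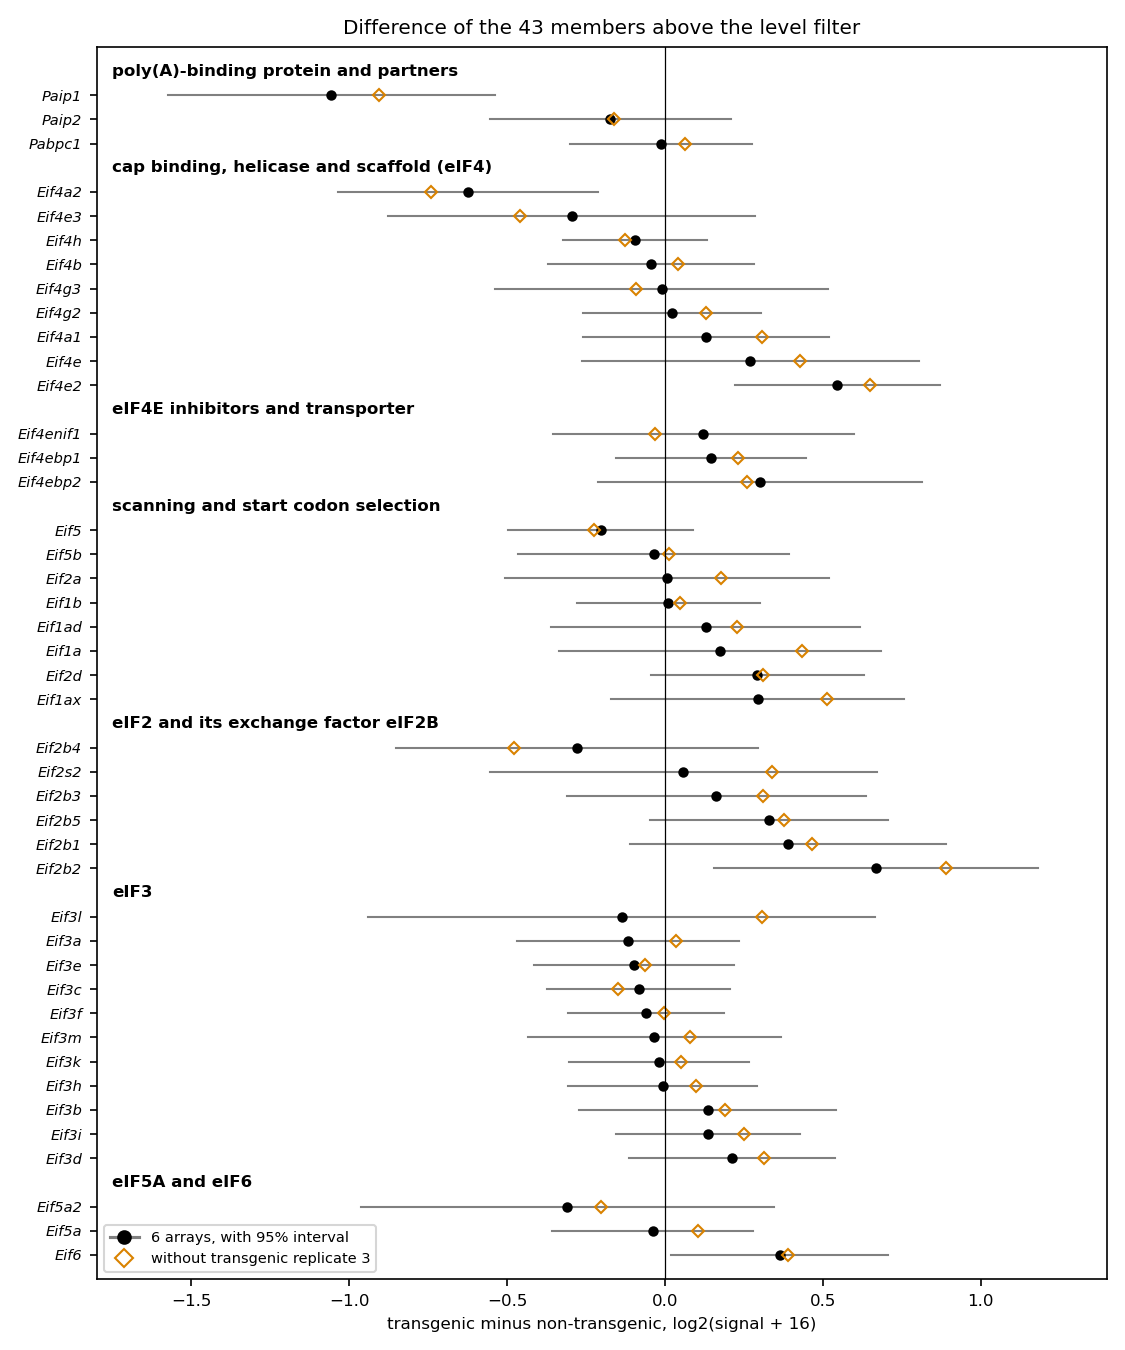
Difference between transgenic and non-transgenic cultures on the log2(signal + 16) scale for the 43 members above the filter, grouped by role, with limma's 95% interval as a grey line and the value without transgenic replicate 3 as an open diamond. The intervals of Paip1, Eif4a2, Eif4e2, Eif2b2 and Eif6 do not reach 0, and the eIF3 subunits lie between -0.14 and 0.21.

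Among the factors of scanning and start codon selection, 6 of 8 lay above 0, with a median difference of 0.07 (0.20 without transgenic replicate 3), and 0 passed an unadjusted p of 0.05 in limma. Eif2d, which can deliver tRNA to the ribosome without GTP and acts in recycling, was at 13.15, 12.84 and 12.93 in the transgenic cultures, against 12.81, 12.60 and 12.63 in the non-transgenic cultures. The groups did not overlap, if narrowly, and the difference was 0.29 ± 0.15 (limma adjusted p = 0.453). All 4 of its probe sets above the filter lay higher, by 0.21 to 0.44.

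Eif5, which makes eIF2 hydrolyse GTP at the start codon, was at 13.50, 13.50 and 13.57 in the transgenic cultures, against 13.52, 13.84 and 13.81 in the non-transgenic cultures. The transgenic cultures were tightly grouped at the level of the lowest non-transgenic one. The difference was -0.20 ± 0.13 (limma adjusted p = 0.524), and its 5 probe sets ran from -0.50 to 0.36.

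Eif1ax and Eif1a, paralogues that encode eIF1A, were both highest in transgenic replicates 1 and 2 and lowest in replicate 3. Eif1ax, described by array after its values were seen, was at 13.68, 13.81 and 13.09 in the transgenic cultures, against 13.19, 13.11 and 13.39 in the non-transgenic cultures. The difference was 0.29 ± 0.20 (limma adjusted p = 0.555) and 0.51 without transgenic replicate 3 (limma adjusted p = 0.0404). Its other probe sets differed by -0.0034 and -0.67, so its direction depends on the probe set.

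Eif1a differed by 0.17 ± 0.22, and by 0.43 without transgenic replicate 3 (limma adjusted p = 0.0563). Its brightest probe set is of a type that can read related transcripts, so signal of Eif1a and Eif1ax may be shared. Eif1b, a paralogue of the scanning factor eIF1, differed by 0.01 ± 0.13, and Eif1ad, an eIF1A-domain protein, by 0.13 ± 0.21. Eif5b, the GTPase that joins the subunits, differed by -0.04 ± 0.19, although its dimmest probe set lay lower without overlap, by -0.55. Eif2a, a factor of alternative initiation, differed by 0.01 ± 0.22.

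The members include 11 of the subunits of eIF3, the scaffold of the small-subunit complex, and the other subunits were not analysed here. The differences of these 11 ran from -0.14 to 0.21, with a median of -0.03, 3 of 11 lay above 0, and none passed an unadjusted p of 0.05. Eif3d, a subunit that can itself bind the cap, was at 13.22, 13.21 and 12.91 in the transgenic cultures, against 12.84, 12.88 and 12.99 in the non-transgenic cultures, a difference of 0.21 ± 0.14 (limma adjusted p = 0.542). Eif3i, a WD-repeat subunit, was at 14.94, 14.77 and 14.51 in the transgenic cultures, against 14.59, 14.52 and 14.71 in the non-transgenic cultures, a difference of 0.14 ± 0.13 (limma adjusted p = 0.658). In both, replicates 1 and 2 were the highest arrays and replicate 3 lay within or just below the non-transgenic range.

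Eif3l had the widest spread of the subunits, as noticed after its values were seen, at 13.98, 13.73 and 12.52 in the transgenic cultures, against 13.73, 13.53 and 13.39 in the non-transgenic cultures. Its transgenic replicate 3 lay 1.03 below the non-transgenic mean. Its second probe set, at 13.22, 13.26 and 13.14 in the transgenic cultures and 13.17, 12.99 and 13.10 in the non-transgenic cultures, did not show this low value. The core subunits Eif3a, Eif3b and Eif3c differed by -0.12 ± 0.15, 0.14 ± 0.18 and -0.08 ± 0.12.

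The remaining members of the 11 were as near to 0. Eif3e differed by -0.10 ± 0.14, Eif3f by -0.06 ± 0.11 and Eif3h by -0.01 ± 0.13. Eif3k differed by -0.02 ± 0.12 and Eif3m by -0.03 ± 0.17. Every one of these was within the spread between cultures, though a second probe set of Eif3m differed by 0.52.

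Eif6, which keeps the large ribosomal subunit from joining too early, was at 12.57, 12.84 and 12.62 in the transgenic cultures, against 12.25, 12.27 and 12.42 in the non-transgenic cultures. All 3 transgenic cultures lay above the non-transgenic ones, and replicate 3 lay with its group. The difference was 0.36 ± 0.15 (SE, 95% interval 0.02 to 0.71, limma adjusted p = 0.428, unadjusted p = 0.0407), and 0.39 without transgenic replicate 3 (limma adjusted p = 0.127). Its second probe set differed by 0.64, where replicate 3 lay among the non-transgenic cultures. The difference of the brightest one was 0.15 with the Gapdh ratio as a covariate and 0.30 with the beta-actin ratio.

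Eif5a, the hypusine-bearing factor that helps ribosomes through difficult stretches, differed by -0.04 ± 0.14. Its paralogue Eif5a2 was at 10.25, 10.33 and 9.97 in the transgenic cultures, against 10.01, 10.90 and 10.57 in the non-transgenic cultures. The groups overlapped, and the difference was -0.31 ± 0.28 (limma adjusted p = 0.652).

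Transgenic replicate 3 was the lowest of the 6 arrays for 19 of 43 members (44.2%, against 14.3% of all genes), among them 7 of the 11 eIF3 genes. Transgenic replicates 1 and 2 were the highest for 12 and 14 members (27.9% and 32.6%, against 15.6% and 21.3% of all genes). Relative to the non-transgenic mean the members' median shift was 0.13, 0.12 and -0.13 in transgenic replicates 1, 2 and 3, where that of all genes was -0.02, -0.08 and 0.09. The transgenic cultures thus spread to both sides of the non-transgenic ones, with a median range of 0.42 over the transgenic and 0.24 over the non-transgenic cultures for the members, and of 0.62 and 0.35 for all genes.

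**Figure D4:**
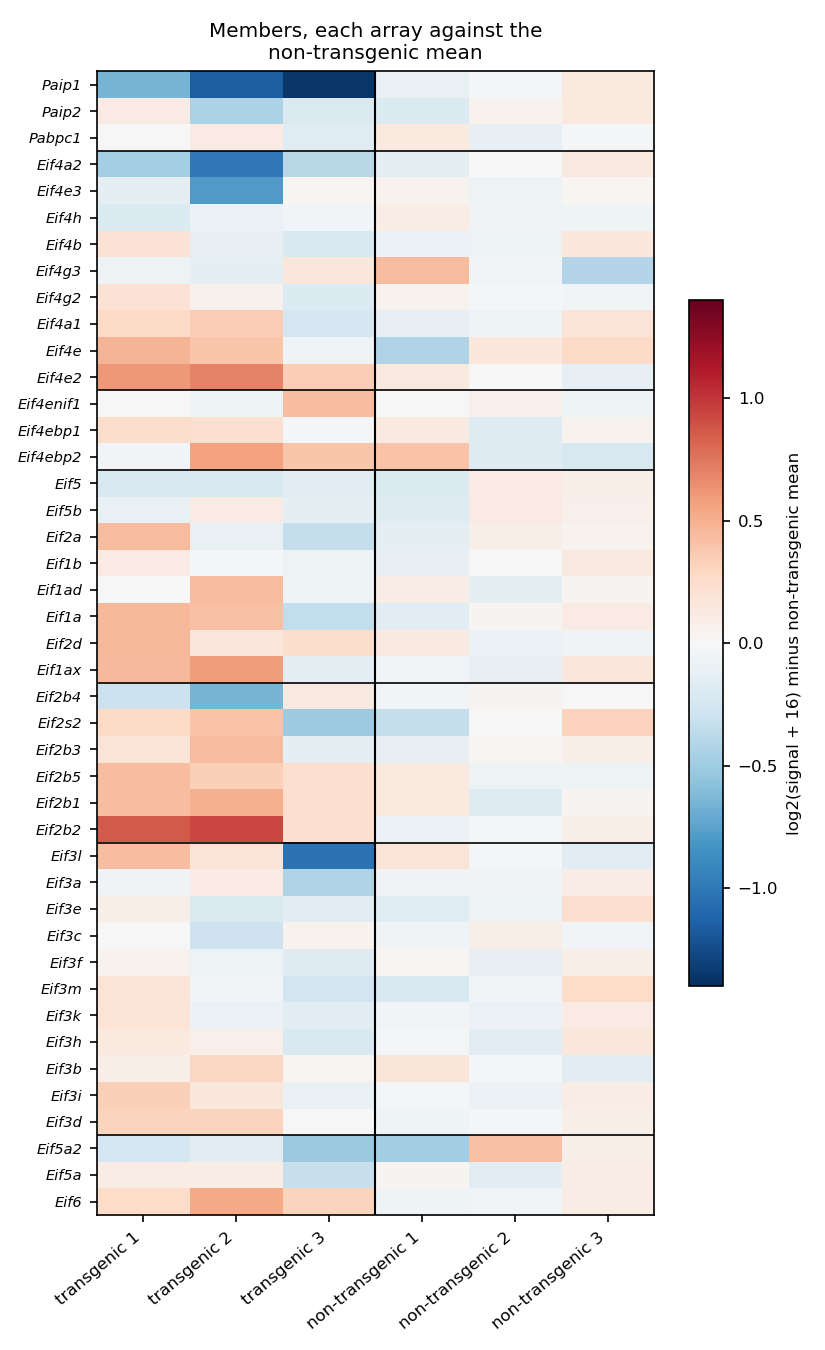
Level of each of the 43 members on each array minus its non-transgenic mean, in log2 units, with members grouped by role and a colour range that covers all values. Transgenic replicates 1 and 2 are mostly red for Eif1a, Eif1ax, Eif2d and the genes of eIF2 and eIF2B other than Eif2b4, while transgenic replicate 3 is blue in most eIF3 subunits and Paip1 is blue in all 3 transgenic cultures.

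That count depended on the scaling. Transgenic replicate 3 was the lowest array for 13 members with quantile normalization (30.2%, against 13.7% of all genes). With each array centred on its median it was the lowest for 3 (6.98%, against 3.33%). Centring adds 1 constant per array and moved the median difference of all genes to 0.25 and that of the members to 0.28. With quantile normalization the medians were 0.01 for all genes and 0.02 for the members. With centring, 16 members were higher at an unadjusted p of 0.05 in limma (37.2%, against 24.3% of all genes). On the lower side centring left 1 (2.33%, against 0.883%). With quantile normalization 3 were higher (6.98%, against 7.64%) and 2 lower (4.65%, against 4.92%). Every direction above is therefore relative to the deposited scaling.

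Markers of cell division moved in the same arrays. The summed signal of the 17 proliferation markers was 43024 to 105954 in the transgenic cultures and 38994 to 47341 in the non-transgenic cultures, with the lowest transgenic value in replicate 3. Their mean shift was 1.74, 2.16 and -0.08 in transgenic replicates 1, 2 and 3, against 0.55, -0.23 and -0.32 in non-transgenic replicates 1, 2 and 3. The number of these markers above the filter was 17, 17 and 11 on the transgenic arrays and 16, 11 and 11 on the non-transgenic arrays. Their part in the levels of Eif2b2, Eif1ax, Eif1a and the eIF3 subunits was not tested.

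Among the other cell types, the summed signals of the fibroblast, smooth muscle and endothelial markers overlapped between the groups, while those of the adipocyte markers did not. The summed signal of the 10 adipocyte markers was 32199 to 63250 in the transgenic cultures, against 76485 to 114950 in the non-transgenic cultures. That of the 16 leukocyte markers was 4943 to 22588 in the transgenic cultures, against 3382 to 5001 in the non-transgenic cultures. The leukocyte sums thus overlapped. In transgenic replicate 2, 11 of the leukocyte markers lay above the filter, and 4 or 5 did on each other array. The part of the adipocyte and leukocyte markers in the levels of Paip1 and Eif4a2 was not tested.

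The neighbouring steps of translation showed little difference. Of the 11 elongation and termination factors tested 6 lay above 0, with a median difference of 0.00, and 0 passed an unadjusted p of 0.05 in limma. Eef1a1, which brings aminoacyl-tRNA to the ribosome, differed by -0.20 ± 0.12. Eef1e1, a component of the multisynthetase complex, was at 12.33, 12.45 and 11.30 in the transgenic cultures, against 11.56, 11.48 and 11.66 in the non-transgenic cultures, a difference of 0.46 ± 0.31 that was 0.83 without transgenic replicate 3 (limma adjusted p = 0.0166). Of the 9 eIF2alpha kinases and phosphatase genes 3 lay above 0, with a median of -0.09, and 0 passed an unadjusted p of 0.05. The kinase of the endoplasmic reticulum, Eif2ak3, differed by -0.29 ± 0.20, and the phosphatase subunit Ppp1ca by 0.18 ± 0.14.

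Of the 15 genes of mTOR and MNK signalling to eIF4, 6 lay above 0, with a median of -0.05, and Rictor was the 1 with an unadjusted p under 0.05, which 11.5% of all genes had. Rictor, the defining subunit of mTOR complex 2, was at 11.06, 11.15 and 10.76 in the transgenic cultures, against 11.71, 12.11 and 11.84 in the non-transgenic cultures. All transgenic cultures lay below all non-transgenic ones, as for Paip1, and the difference was -0.89 ± 0.20 (limma adjusted p = 0.428), or -0.78 without transgenic replicate 3 (limma adjusted p = 0.0326). Pdcd4, an inhibitor of eIF4A, differed by -0.22 ± 0.12.

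The other genes of poly(A) binding and deadenylation lay mostly lower, 4 of 23 being above 0 (47.5% of all genes were), with a median of -0.12 (-0.16 without transgenic replicate 3), against -0.02 for all genes tested (-0.06 without that array). At an unadjusted p of 0.05, 2 of the 23 were lower in limma and 0 higher, where 5.02% and 6.47% of all genes were. Tob2, which links the poly(A)-binding protein to the CCR4-NOT deadenylase, was at 14.16, 14.07 and 14.35 in the transgenic cultures, against 14.69, 14.44 and 14.59 in the non-transgenic cultures, a difference of -0.38 ± 0.12 (limma adjusted p = 0.428). Tnrc6a, a scaffold of microRNA silencing that binds the poly(A)-binding protein, was at 12.63, 12.98 and 12.91 in the transgenic cultures, against 13.16, 13.35 and 13.25 in the non-transgenic cultures, a difference of -0.41 ± 0.14 (limma adjusted p = 0.428). The groups of both genes did not overlap. Without transgenic replicate 3, 2 genes of this list passed an adjusted p of 0.05 in limma on the lower side, where 7.83% of all genes did, one of them Tob2 (-0.45, limma adjusted p = 0.031). At these p thresholds the counts of this list are near the shares of the array, while the count above 0 is well below its share. Whether the list as a whole lay lower was not tested.

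Probe sets of the same member did not always run the same way. Of 29 members with more than 1 probe set above the filter, 15 had all of them on 1 side of 0. Over the 101 probe sets of members above the filter, tested among 22519 on the array, 0 passed limma's adjusted p of 0.05 and the smallest was 0.205. Across the 19 other settings tried beside the deposited scaling and the brightest probe set, the Paip1 difference stayed between -1.26 and -0.70.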

How the data were processed

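RNA of 3 transgenic and 3 non-transgenic cultures was measured on Affymetrix mouse genome arrays. The authors deposited 1 intensity per probe set and array, and the submitters' processing notes name MAS5 without a version. MAS5 scales each array to a target, and the trimmed mean differed by little between arrays, so the scaling was kept. The deposited intensities were turned into log2(intensity + 16). Gene names came from the array annotation (34945 probe sets with 1 gene, 932 with several, 9160 with none listed), updated by gene identifier for 34741 with RefSeq's GRCm38.p6 table, which also gave the promoter sequences. No genome build of the array annotation was stated.

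Each gene was read by its brightest probe set by mean over the 6 arrays. The 11208 genes with a mean of at least 7.72, which equals a signal of 194 and is the median over non-control probe sets, were tested with limma 3.58.1 under R 4.3.3 (linear models, empirical Bayes with a mean-level trend), two-sided, with Benjamini-Hochberg adjustment over all of them at 0.05. Figures and motif counts used Python 3.11.15. The test was tested on simulated data. Exact permutation was used for the array quality values. Groups and replicate numbers came from the sample titles, and no 2 arrays shared over 0.142% of their values.

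By a rule, values on every array are given for Pabpc1, Paip1, Paip2, each eIF4E inhibitor, the 10 members with the smallest p and the 2 with the smallest p in each role. The values by array of Eif4e, Eif2b4, Eif1ax, Eif3l and a dimmer Eif4b probe set were not picked by this rule. In each pathway list the 2 genes with the smallest p are named. The members and lists were chosen with earlier results of these data known. The alternatives changed the pseudocount, the filter, the scaling, the variance prior, the array weights, the probe set rule and the covariates, added a replicate block, and left out each array in turn. The counts of members whose groups do not overlap, and of members lowest on transgenic replicate 3, were added as outcomes after seeing the data.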

Additional observations from a re-analysis of the deposited data

How the results depend on the processing

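With 3 arrays per group a member needs a difference well beyond the spread between cultures to pass, and the calls depend on transgenic replicate 3 and on how arrays are weighted. Paip1, Eif4e2, Eif4a2, Eif2b2 and Eif6 kept their direction under all 19 alternatives. Those that changed only the filter, the variance prior or the replicate block cannot alter a gene's difference, so they do not bear on its direction. The causes of the changes below were not tested.

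Leaving out each array in turn, limma called 0 to 1649 genes and 0 to 5 members at an adjusted p of 0.05, both highest without transgenic replicate 3 (14.7% of all genes). At an unadjusted p of 0.05 in limma, 1 to 8 members were higher and 2 to 3 lower. The 8 higher came without transgenic replicate 3 (18.6%, against 14.2% of all genes). The count was 1 without transgenic replicate 2 (2.33%, against 3.52%) or non-transgenic replicate 2 (2.33%, against 2.15%). The 3 lower came without transgenic replicate 3 (6.98%, against 18.3%) or non-transgenic replicate 1 (6.98%, against 5.14%). Elsewhere 2 were lower (4.65%, against 1.65% to 3.03%). The members' median ran from -0.04 to 0.10. Members whose groups did not overlap numbered 6 to 17 higher and 2 to 6 lower, the most without transgenic replicate 3 (39.5% and 14%, against 22.8% and 27.4% of all genes). On the lower side they were 5 without transgenic replicate 1 (11.6%, against 9.62%) and 4 without non-transgenic replicate 1 (9.3%, against 14.9%). The difference of Pabpc1 ran from -0.077 to 0.064, turning to 0.064 without transgenic replicate 3 and 0.058 without non-transgenic replicate 1, and that of Eif4enif1 from -0.033 without transgenic replicate 3 to 0.22.

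With array weights limma called 5504 genes and 21 members (48.8%, against 49.1% of all genes), with 19 members higher (44.2%, against 26.5%) and 5 lower (11.6%, against 30.2%) at an unadjusted p of 0.05 and a median of 0.16. The weights were 5.24 for transgenic replicate 1 and 4.65 for non-transgenic replicate 2, and from 0.177 to 1.20 for the others. Pabpc1 turned to 0.090, Paip2 to 0.028 and Eif4enif1 to -0.026. With arrays centred on the median, 16 members were higher (37.2%, against 24.3% of all genes) and 1 lower (2.33%, against 0.883%), and the median was 0.28. The groups then did not overlap for 21 members on the higher side (48.8%, against 30.6%) and 1 on the lower side (2.33%, against 0.964%). In this setting 3 members were lowest on transgenic replicate 3 (6.98%, against 3.33%). Pabpc1 turned to 0.26, Paip2 to 0.095 and Eif5 to 0.065.

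With the mean of all probe sets 0 members were higher at an unadjusted p of 0.05 in limma (0%, against 6.13% of all genes). On the lower side 2 passed (4.76%, against 7.63%), and Eif2b5 turned to -0.24. With the Gapdh ratio as a covariate 0 members were higher (0%, against 3.44% of all genes) and 2 lower (4.65%, against 3.04%). The median was then -0.12, while Eif3d turned to -0.020 and Eif3i to -0.027. With that covariate Paip1 differed by -1.23, Eif4e2 by 0.47, Eif4a2 by -0.37, Eif2b2 by 0.19 and Eif6 by 0.15, and Eif4a2 was -0.36 with centred arrays. With the beta-actin ratio as the covariate, Paip1 differed by -1.14, Eif4e2 by 0.49, Eif4a2 by -0.52, Eif2b2 by 0.49 and Eif6 by 0.30. There 2 members were higher at an unadjusted p of 0.05 in limma (4.65%, against 6.17% of all genes) and 3 lower (6.98%, against 5.1%).

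The replicate numbers did not pair the cultures. Deviations of same-numbered arrays correlated at 0.04, -0.28 and -0.03, and 0 of 6 arrays correlated best with their own number. With the replicate block limma called 0 genes and 0 members. At an unadjusted p of 0.05, 2 members were higher (4.65%, against 5.38% of all genes) and 2 lower (4.65%, against 4.59%). The Paip1 difference was -1.06, which this balanced block cannot change, and its limma adjusted p was 0.459.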
